A study of Mus musculus with 12 samples.

Results

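Mast cell genes, 9 of the 23715 genes in the tables, were followed in RNA-seq libraries of newborn mouse calvaria, the bones of the skull vault. They are the tryptases Tpsab1 and Tpsb2, the chymases Cma1 and Mcpt4, the carboxypeptidase Cpa3, the stem cell factor receptor Kit, the IgE receptor subunits Fcer1a and Ms4a2, and the histamine-making enzyme Hdc. The genes were selected on their names as mast cell genes with their FPKM in P-KO against P-Ctrl and R-Het against R-WT mice already known, so their levels and fold changes between mutants and controls are given as a description, without p-values. Libraries came from 12 mice in 4 groups of 3. P-KO mice carried a homozygous Med23 deletion in mesenchymal stem cells, made with floxed Med23 and a Prx1-Cre transgene that is active mainly in limb and craniofacial mesenchyme. P-Ctrl mice were their control littermates, which the labels give as WT and the study's supplement as Med23fl/fl. R-Het mice carried 1 inactive copy of Runx2 in all cells (Runx2+/-), and R-WT mice were their WT littermates. All mice are labelled C57BL/6 and newborn, whereas the study's methods describe parietal bone taken shortly after birth, and each library is 1 mouse.

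The authors deposited 1 FPKM value (fragments for a given length of transcript and size of library) for each RefSeq transcript, and the transcripts sharing a symbol were summed. The depth was put at 7800000 to 11700000 fragments per mouse from the smallest values, so that a gene near 1 FPKM rests on few fragments. Neither targeted gene separated its mutants from their littermates. Med23 was at 5.32 ± 0.732 FPKM in P-Ctrl and 5.3 ± 0.425 FPKM in P-KO mice, and Runx2 was at 31.6 ± 5.39 FPKM in R-WT and 33.5 ± 2.76 FPKM in R-Het mice (SD, n = 3 each). Runx2 did separate the other cross, at 30.5 to 38 FPKM in P-Ctrl and 23.7 to 28.7 FPKM in P-KO mice. This is a description, given without a test and without the share of all genes that were lower in this way. It does not establish a fall of Runx2. By real-time PCR, the study found Runx2 unchanged in calvaria of newborns with the Med23 deletion. The study also reported no change of Runx2 in stem cells lacking Med23 or after its knockdown in such cells. Its western blots showed MED23 largely lost in bone marrow stem cells of mice with the deletion. Since the FPKM could not check the genotypes, the groups below are the libraries labelled P-Ctrl, P-KO, R-WT and R-Het. Xist, an RNA of the silenced X chromosome in females, was above 1 FPKM in P-Ctrl mice 2 and 3 and in R-WT mouse 1 only. Of the 9 mast cell genes, 7 reached 1 FPKM in 3 or more mice and were among the 13059 genes tested. Fcer1a and Ms4a2 did not.

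Mast cells arise from blood progenitors and settle in connective tissue, where KIT and its ligand keep them alive. They store serine proteases, carboxypeptidase and histamine in granules, bound to heparin proteoglycan. Crosslinking of IgE on the high-affinity receptor releases the granules. In mice, Mcpt4, Cma1, Tpsb2 and Cpa3 mark the connective tissue type, and Mcpt1 and Mcpt2 the mucosal type. The RNA came from bone tissue and not from sorted cells, so fewer or more mast cells and less or more RNA per mast cell cannot be told apart.

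The tryptases lie side by side on chromosome 17. Tpsab1 encodes mast cell protease 7 and lies on the minus strand at chr17:25343245-25345562 (GRCm38, named mm10 in the submitters' processing notes). Tpsb2 encodes mast cell protease 6, lies at chr17:25366308-25368096, and is separated from Tpsab1 by 20745 bases. Both are trypsin-like enzymes that cut after basic residues. Their GENCODE M21 coding sequences are 76.1% identical over 830 aligned bases, the longest run they share is 39 bases, and 4 of the 1121 stretches of 36 bases in the Tpsab1 transcript also occur in that of Tpsb2. The 63 coding bases around the codon of the active-site serine are shown because they let a reader see how far the RNAs of the neighbours differ. Capitals mark the 19 bases that differ between them.
Tpsab1: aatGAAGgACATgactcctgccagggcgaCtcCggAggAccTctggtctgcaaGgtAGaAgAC
Tpsb2: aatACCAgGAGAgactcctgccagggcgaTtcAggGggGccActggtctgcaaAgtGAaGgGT

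Tpsab1 was at 0.934, 0.637 and 1.19 FPKM in P-Ctrl mice 1 to 3, and at 1.61, 1.25 and 0.668 FPKM in P-KO mice 1 to 3. It was at 1.15, 0.715 and 0.262 FPKM in R-WT mice 1 to 3. In R-Het mice 1 to 3 it was at 13.3, 23.3 and 14.2 FPKM. The R-Het mice stood apart from all 9 other mice, whose highest value was 1.61 FPKM, and the other groups overlapped. The mean of R-Het mice was 23.9 times that of R-WT mice, 16.9 ± 5.56 against 0.71 ± 0.445 FPKM (SD, n = 3 each). The difference of log2(FPKM + 1) was 3.38 (standard error 0.25), and it stayed between 3.14 and 3.56 when any 1 mouse was left out. It was 4.52 with 0.1 in place of 1 as the added constant, since a constant of 1 understates changes from low values. In P-KO against P-Ctrl mice the log2 difference of Tpsab1 was 0.17 (standard error 0.21), and it ranged from 0.02 without P-KO mouse 1 to 0.35 without P-KO mouse 3. In R-Het against R-WT mice 1.89% of all tested genes were called (limma, Benjamini-Hochberg adjusted p under 0.05), and 0.398% were called higher. Calls of the members are not given for the mutant comparisons, since the genes were chosen with these differences known.

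Nearly all of the difference lay in 1 of the 2 Tpsab1 transcripts of the tables. The coding RNA NM_031187 was at 12.1, 21.5 and 14 FPKM in R-Het mice 1 to 3. In P-Ctrl mice 1 to 3 it was listed at 0.00012, 0.107 and 3.8e-05 FPKM, in P-KO mice at 0, 0.00323 and 0.00175 FPKM, and in all 3 R-WT mice at 0. Only P-Ctrl mouse 2 among these 9 mice reached the 0.0736 to 0.111 FPKM that 1 fragment of this transcript is worth, and 8 of the 9 were below 0.01 FPKM. The non-coding RNA NR_033521 was present in all 12 mice at 0.206 to 1.86 FPKM (median 1.04). It was at 1.15, 1.86 and 0.206 FPKM in R-Het mice and at 1.15, 0.715 and 0.262 FPKM in R-WT mice, so that these groups overlapped. The coding RNA made up 91.4%, 92% and 98.5% of Tpsab1 in R-Het mice 1 to 3 and at most 16.8% in any other mouse.

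**Figure D1:**
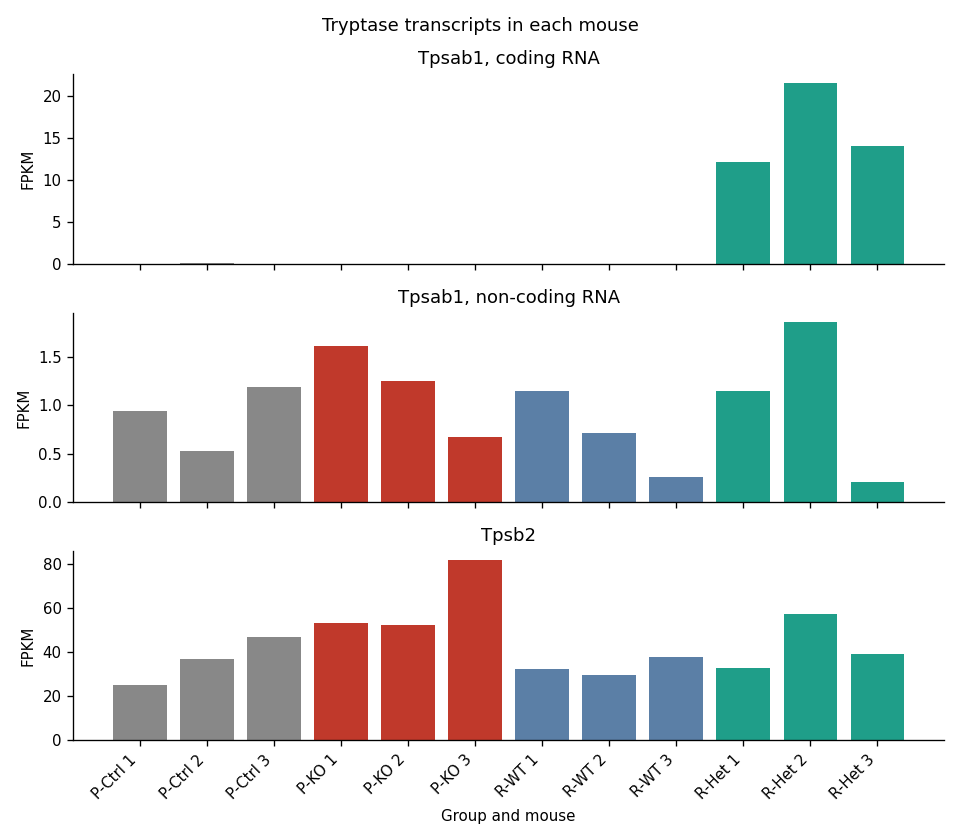
FPKM (y axis, linear from 0, with its own scale in each panel) of the coding and the non-coding Tpsab1 RNA and of Tpsb2 in each of the 12 mice (x axis), 1 bar per mouse coloured by group. The coding Tpsab1 RNA has visible bars in the 3 R-Het mice, at 12.1 to 21.5 FPKM, whereas the non-coding RNA and Tpsb2 have bars in all 12 mice.

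References differ on this gene. The RefSeq gene table of GRCm38.p6 lists Tpsab1 as a transcribed pseudogene with the non-coding RNA alone, and GENCODE M21 lists it as protein coding and links both RefSeq RNAs to 1 transcript of 1156 bases. It is known that the Tpsab1 allele of C57BL/6 carries a splice-site change and that mast cells of this strain lack the mature protease, whereas other laboratory strains make it. The allele that each mouse carried was not examined here, and the values do not tell how the authors' program divided fragments between RNAs that are nearly alike. GENCODE gives the gene 2 transcripts, of 933 and 243 coding bases. The longer one has 5 exons, and its exon 2, 166 coding bases at chr17:25345050-25345215 on the minus strand, is absent from the shorter one. This exon is shown because the shorter RNA lacks it, but the annotated RNAs, with 5 and 2 exons, also differ elsewhere. The transcript of 1156 bases that GENCODE links to both measured RNAs has the length of the longer one. Neither measured RNA is thus linked to the shorter one, and the values do not tell which exons the fragments came from.
Tpsab1 exon 2: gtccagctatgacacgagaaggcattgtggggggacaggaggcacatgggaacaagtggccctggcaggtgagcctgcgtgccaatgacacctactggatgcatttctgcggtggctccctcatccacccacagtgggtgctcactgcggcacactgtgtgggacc

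Tpsb2 was detected in every mouse and did not follow its neighbour. It was at 25.2, 36.7 and 47 FPKM in P-Ctrl mice 1 to 3 and at 53.1, 52.4 and 81.6 FPKM in P-KO mice 1 to 3. Each P-KO mouse lay above each P-Ctrl mouse, with means of 62.4 ± 16.7 and 36.3 ± 10.9 FPKM (SD, n = 3 each) and a log2 difference of 0.78 (standard error 0.25). In R-WT mice 1 to 3 it was at 32.5, 29.7 and 37.7 FPKM and in R-Het mice 1 to 3 at 32.6, 57.2 and 39.3 FPKM, which overlapped. The log2 difference between them was 0.33 (standard error 0.19), and it ranged from 0.11 without R-Het mouse 2 to 0.51 without R-Het mouse 1. Within R-Het mice 1 to 3, the coding Tpsab1 RNA was 0.372, 0.375 and 0.356 times as abundant as Tpsb2. Mouse 2, highest in Tpsb2, was thus also highest in Tpsab1.

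The chymase genes lie on chromosome 14, Cma1 (mast cell protease 5, an alpha-chymase that in rodents acts like an elastase) at chr14:55941451-55944675 and Mcpt4 at chr14:56059744-56062310, with 115068 bases between them. Their coding sequences are 67.6% identical over 735 aligned bases, and none of the 1039 stretches of 36 bases in the Cma1 transcript occurs in that of Mcpt4. The window around the active-site serine codon is shown to set the chymases beside the tryptases above, with the 13 bases that differ between Cma1 and Mcpt4 in capitals.
Cma1: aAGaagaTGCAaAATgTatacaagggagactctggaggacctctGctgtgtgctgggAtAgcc
Mcpt4: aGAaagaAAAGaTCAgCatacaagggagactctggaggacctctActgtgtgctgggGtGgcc

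Cma1 was at 23.8, 41.2 and 49.8 FPKM in P-Ctrl mice 1 to 3 and at 54.8, 67.8 and 68.6 FPKM in P-KO mice 1 to 3, without overlap. The log2 difference was 0.78 (standard error 0.25), with means of 38.3 ± 13.3 and 63.7 ± 7.79 FPKM (SD, n = 3 each), and it was 0.48 without P-Ctrl mouse 1. Cma1 was at 39.5, 31.1 and 44.9 FPKM in R-WT mice and at 31.6, 75.4 and 35 FPKM in R-Het mice. R-Het mouse 2 alone lay above the R-WT mice, and the log2 difference of 0.20 (standard error 0.30) became -0.19 without it, 0.05 without R-WT mouse 2 and 0.42 without R-Het mouse 1.

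Mcpt4, whose product cuts after aromatic residues as human chymase does, was at 17, 28.5 and 34 FPKM in P-Ctrl mice 1 to 3 and at 38.2, 38.6 and 29.9 FPKM in P-KO mice 1 to 3. These groups overlapped, since P-KO mouse 3 lay below P-Ctrl mouse 3. The log2 difference was 0.46 (standard error 0.24), and 0.18 without P-Ctrl mouse 1. In R-WT mice 1 to 3 Mcpt4 was at 25, 16 and 25.9 FPKM and in R-Het mice 1 to 3 at 16.9, 40.6 and 17 FPKM. The log2 difference of 0.06 (standard error 0.33) became -0.35 without R-Het mouse 2, -0.15 without R-WT mouse 2 and 0.26 without R-Het mouse 1 or mouse 3. In P-KO mice 1 to 3, Mcpt4 was 0.698, 0.569 and 0.436 times as abundant as Cma1, and in P-Ctrl mice between 0.683 and 0.717 times. R-WT mice gave 0.516 to 0.632 times and R-Het mice 0.486 to 0.539 times, so that the ratio in P-KO mice overlapped with that of every other group.

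Cpa3, at chr3:20215616-20242209, encodes an exopeptidase that removes residues from the ends of peptides. It was at 13.2, 22.1 and 29.3 FPKM in P-Ctrl mice 1 to 3 and at 41.6, 44.8 and 50.5 FPKM in P-KO mice 1 to 3. The P-KO mice stood above all 9 other mice, of which R-Het mouse 2 was highest at 36.8 FPKM. The means were 21.5 ± 8.03 and 45.6 ± 4.51 FPKM (SD, n = 3 each), a 2.12-fold difference, and the log2 difference of 1.11 (standard error 0.25) ranged from 0.81 to 1.36 when any 1 mouse was left out. R-WT mice 1 to 3 had 22.3, 18.9 and 21.5 FPKM and R-Het mice 1 to 3 had 17.9, 36.8 and 23.6 FPKM. These groups overlapped, with a log2 difference of 0.25 (standard error 0.22), which was -0.02 without R-Het mouse 2 and 0.48 without R-Het mouse 1.

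**Figure D2:**
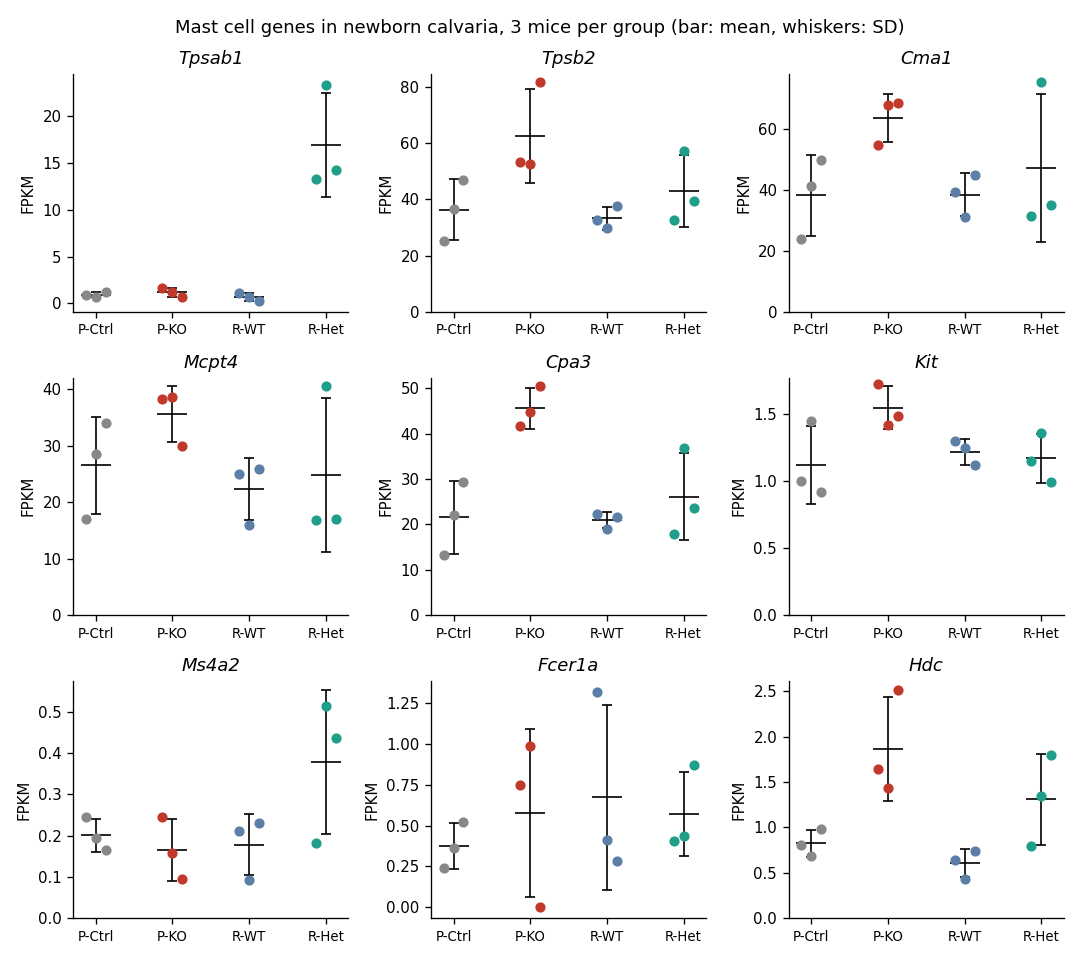
FPKM (y axis, linear, with its own scale in each panel) of the 9 mast cell genes in the 4 groups (x axis), 1 point per mouse, with a bar at the mean and whiskers of 1 SD (n = 3). Tpsab1 is apart in the R-Het mice at 13.3 to 23.3 FPKM, and Tpsb2, Cma1, Cpa3 and Hdc lie higher in each P-KO mouse than in each P-Ctrl mouse.

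The RefSeq promoter table (GRCm38.p6) held entries for 7 of the 9 genes, without Tpsab1 and Tpsb2. The 250 bases before the gene start were searched on both strands for GATAA, a core of the sites of GATA factors such as the mast cell regulator GATA2, and for CATGTG, an E-box that MITF can bind. GATAA occurred in the windows of 5 of the 7 genes, namely Cma1, Mcpt4, Cpa3, Ms4a2 and Fcer1a, and in 22.6% of all 32851 promoters of this length. CATGTG occurred in that of Fcer1a and in 12.3% of all promoters. The windows of Cma1, Mcpt4 and Cpa3 are shown because the levels of these genes ran closely together from mouse to mouse, as given below. All 3 are on the minus strand, written 5′ to 3′ along the gene, with GATAA or its reverse complement TTATC in capitals.
Cma1, chr14:55944676-55944925: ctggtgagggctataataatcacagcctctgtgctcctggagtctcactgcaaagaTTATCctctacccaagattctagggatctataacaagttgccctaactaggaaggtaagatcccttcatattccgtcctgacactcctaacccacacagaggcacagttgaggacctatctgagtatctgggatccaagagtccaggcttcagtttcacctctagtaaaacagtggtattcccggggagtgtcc
Mcpt4, chr14:56062311-56062560: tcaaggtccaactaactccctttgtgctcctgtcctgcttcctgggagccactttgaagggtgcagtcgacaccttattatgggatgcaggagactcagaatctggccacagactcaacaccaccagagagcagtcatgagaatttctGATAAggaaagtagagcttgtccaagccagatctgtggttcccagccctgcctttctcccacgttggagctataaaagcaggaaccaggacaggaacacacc
Cpa3, chr3:20242182-20242431: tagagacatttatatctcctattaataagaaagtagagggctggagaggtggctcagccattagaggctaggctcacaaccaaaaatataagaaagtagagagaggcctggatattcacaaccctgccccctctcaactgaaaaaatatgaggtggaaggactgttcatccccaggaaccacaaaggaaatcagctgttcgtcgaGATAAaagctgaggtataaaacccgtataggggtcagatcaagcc
A match says only that these letters are in the window, and no binding was measured in these libraries.

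Hdc, at chr2:126593659-126624025, encodes the enzyme that makes histamine from histidine. It was at 0.809, 0.684 and 0.978 FPKM in P-Ctrl mice 1 to 3 and at 1.64, 1.43 and 2.51 FPKM in P-KO mice 1 to 3. In R-WT mice 1 to 3 it was at 0.642, 0.432 and 0.74 FPKM and in R-Het mice 1 to 3 at 0.799, 1.34 and 1.8 FPKM. Hdc was higher in each mutant mouse than in each of its own littermates, by a log2 difference of 0.63 (standard error 0.18) in P-KO and 0.51 (standard error 0.19) in R-Het mice. With 0.1 as the added constant these were 1.06 and 0.96. All 5 mice above 1 FPKM were mutants, so Hdc reached the minimum level for testing through the groups where it was high. These values rest on 10.1 to 56 fragments per mouse.

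Kit, the receptor tyrosine kinase for stem cell factor, lies at chr5:75574987-75656722 and is also made by melanocytes and blood progenitors. It had a narrow range of 0.916 to 1.73 FPKM over the 12 mice. P-Ctrl mice 1 to 3 had 0.999, 1.45 and 0.916 FPKM and P-KO mice 1 to 3 had 1.73, 1.42 and 1.49 FPKM, with a log2 difference of 0.27 (standard error 0.15). R-WT mice had 1.12 to 1.3 FPKM and R-Het mice 0.994 to 1.36 FPKM, with a log2 difference of -0.04 (standard error 0.13). Both pairs of groups overlapped. The 2 Kit transcripts of the tables were divided differently in R-Het mice, where NM_021099 was at 0.0205, 0.277 and 0.398 FPKM, below its lowest value of 0.537 FPKM in the other 9 mice. NM_001122733 was at 1.13, 1.09 and 0.595 FPKM in R-Het mice and at 0.00511 to 0.708 FPKM in the other 9, so that the sum did not separate. Both RNAs are nearly alike, with 5241 and 5214 bases, and the division between them is an estimate of the authors' program.

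The high-affinity IgE receptor consists of an alpha chain that holds IgE (Fcer1a, chr1:173221269-173227232), a beta chain that amplifies the signal (Ms4a2, chr19:11615517-11623790) and gamma chains (Fcer1g). Fcer1a ranged from 0 to 1.32 FPKM. P-KO mice 1 to 3 had 0.751, 0.987 and 0 FPKM, and R-WT mice 1 to 3 had 1.32, 0.412 and 0.282 FPKM, so that mice of 1 group spanned nearly the whole range. Ms4a2 ranged from 0.0925 to 0.515 FPKM, with R-Het mice 2 and 3 highest at 0.515 and 0.437 FPKM and R-Het mouse 1 at 0.182 FPKM. No pair of groups was separated in either gene, and Fcer1a rests on 0 to 15.5 fragments per mouse. Differences in these subunits were not detectable at this depth. Fcer1g, which macrophages and other myeloid cells also make, was at 122 to 207 FPKM.

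Among the 8 genes other than Tpsab1, most of the summed FPKM came from proteases. Tpsb2, Cma1, Mcpt4 and Cpa3 held 96.6% to 98.4% of the sum of these 8 genes in every mouse. This is a share of the chosen genes and not of all mast cell RNA. The sum of the 8 genes was 81.5, 131 and 163 FPKM in P-Ctrl mice 1 to 3 and 192, 208 and 235 FPKM in P-KO mice 1 to 3. In R-WT mice it was 123, 97.9 and 132 FPKM and in R-Het mice 102, 214 and 119 FPKM. The sum was thus higher in each P-KO mouse than in each P-Ctrl mouse, and R-Het mouse 2 lay apart from its group in the direction of the P-KO mice. Tpsab1 amounted to 10.9% to 13.1% of the sum in R-Het mice and to at most 1.15% in the other 9 mice.

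By median level over the 12 mice, Cma1 (43.1 FPKM) and Tpsb2 (38.5 FPKM) were most abundant, followed by Mcpt4 (27.2 FPKM) and Cpa3 (22.9 FPKM). Kit (1.28 FPKM), Tpsab1 (1.17 FPKM), Hdc (0.894 FPKM), Fcer1a (0.426 FPKM) and Ms4a2 (0.202 FPKM) followed at a distance. Cma1 and Tpsb2 were not ordered the same way in all mice, since Cma1 was 0.84 to 1.32 times as abundant as Tpsb2. Mcpt4 was below Cma1 in all 12 mice. Kit, Tpsab1 and Hdc overlapped in their ranges. The pooled median of Tpsab1 describes the other groups, since in R-Het mice it lay at 13.3 to 23.3 FPKM, near Mcpt4 (16.9 to 40.6 FPKM) and Cpa3 (17.9 to 36.8 FPKM).

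In P-KO against P-Ctrl mice, 7 of the 8 genes other than Tpsab1 had a higher mean log2 value, and the median of the 8 log2 differences was 0.54 against 0.06 over all tested genes. Of the 7 tested members 4, Tpsb2, Cma1, Cpa3 and Hdc, were higher in all P-KO than in all P-Ctrl mice, as were 19.6% of all tested genes. Hdc was among the tested members only through mutant mice, as given above, so its place in this count carries no weight. The median depended on the control mice. It was 0.35 without P-Ctrl mouse 1, which was lowest in all 4 abundant proteases, and 0.83 when P-Ctrl mice 2 and 3, which express Xist, were left out and mouse 1 was the only control. With that control alone the log2 difference was 1.24 for Tpsb2, 1.38 for Cma1, 1.01 for Mcpt4 and 1.71 for Cpa3.

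In R-Het against R-WT mice, 6 of the 8 genes had a higher mean, with a median log2 difference of 0.21 against 0.02 over all tested genes. It ranged from -0.01 without R-Het mouse 2 to 0.38 without R-Het mouse 1. Tpsab1 and Hdc were higher in all R-Het than in all R-WT mice, 2 of the 7 tested members, as were 10.7% of all tested genes. Here too, Hdc was tested only through mutant mice and carries no weight in the count. The P-KO comparison gave 0.17 for Tpsab1 and 0.54 as the median of the others, and the R-Het comparison gave 3.38 and 0.21, and whether the genes differ in this was not tested.

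**Figure D3:**
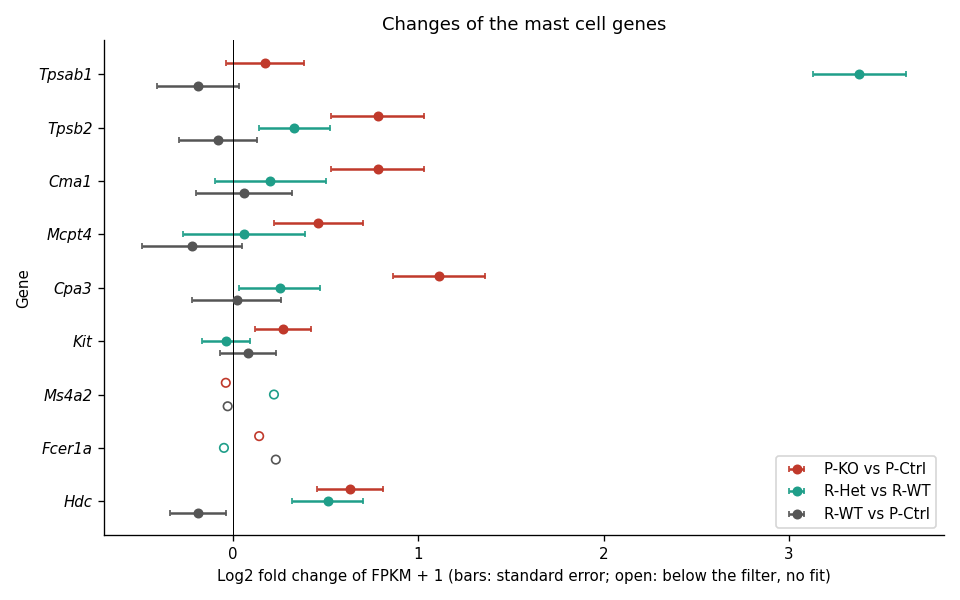
Log2 fold change of FPKM + 1 (x axis) of each mast cell gene (y axis) in P-KO against P-Ctrl, R-Het against R-WT and R-WT against P-Ctrl mice, with bars of 1 standard error from limma and open circles for Fcer1a and Ms4a2, which were below the filter and not fitted. Tpsab1 lies at 3.38 in R-Het against R-WT mice, and every other value lies between -0.22 and 1.11.

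The control groups of both crosses were compared with each other, a comparison that had no part in the choice of the genes. None of the 7 tested members passed the test between R-WT and P-Ctrl mice (limma, adjusted p under 0.05), none had an unadjusted p under 0.05, against 9.43% of all tested genes, and none had groups that did not overlap. Of all tested genes, 0.0383% were called, 10.8% were higher in all R-WT than in all P-Ctrl mice, and 3.89% were lower in all R-WT mice. The log2 difference of Tpsab1 was -0.19 (95% confidence interval -0.71 to 0.33, limma adjusted p = 0.849). That of Tpsb2 was -0.08 (-0.56 to 0.40, adjusted p = 0.945), that of Cma1 0.06 (-0.54 to 0.65, adjusted p = 0.978) and that of Cpa3 0.02 (-0.54 to 0.59, adjusted p = 0.992) in the same limma fit. Mcpt4 was at -0.22 (-0.83 to 0.40, limma adjusted p = 0.86) and Hdc at -0.19 (-0.54 to 0.17, limma adjusted p = 0.753). Kit was at 0.08 (-0.26 to 0.41, limma adjusted p = 0.929). All of these intervals include 0, and none reaches 1 in either direction. Cross and any batch cannot be told apart in this comparison, and the groups also differ in sex. Without the mice that express Xist, P-Ctrl mouse 1 was the only P-Ctrl mouse left. The log2 difference was then 0.39 for Tpsb2, 0.63 for Cma1, 0.25 for Mcpt4 and 0.57 for Cpa3. It was -0.39 for Tpsab1, -0.20 for Hdc and 0.13 for Kit.

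Other genes that mast cells use were taken from 4 lists of relatives of the proteases, receptors and signalling proteins, lineage factors with the KIT ligand, and granule and lipid mediator genes. Of 46 such genes, 33 were tested. In P-KO against P-Ctrl mice 9 had a higher and 24 a lower mean, with a median log2 difference of -0.20, and 1 was called, against 1.57% of all tested genes called and 1.01% called higher. Hs3st1, a heparan sulfate sulfotransferase that also acts on heparin, rose from 4.7, 4.32 and 5.55 FPKM in P-Ctrl mice 1 to 3 to 10.1, 8.08 and 11.6 FPKM in P-KO mice 1 to 3. The log2 difference was 0.89 (standard error 0.15, limma adjusted p = 0.0401, higher in 3 of 3 mice), but the adjusted p was between 0.0594 and 0.145 when any 1 mouse was left out. Hs3st1 was at 14.7, 9.87 and 20.5 FPKM in R-Het and at 7.31, 8.46 and 8.13 FPKM in R-WT mice, a log2 difference of 0.78 (limma adjusted p = 0.133). In R-WT against P-Ctrl mice its log2 difference was 0.62 (limma adjusted p = 0.23), with no overlap between these control groups. Other cells of the calvaria also express Hs3st1.

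In R-Het against R-WT mice, 8 of the 33 had a higher and 25 a lower mean, with a median of -0.20, and 3 were called, all lower, against 1.49% of all tested genes called lower. They were Spi1, a transcription factor of myeloid cells, and the kinases Lyn and Btk, which act below the IgE receptor and in other blood cells. Spi1 fell from 52.4 to 54.7 FPKM in R-WT mice to 31.9 to 36 FPKM in R-Het mice (log2 difference -0.64, standard error 0.08, limma adjusted p = 0.0165). Lyn was lower by a log2 difference of -0.54 (standard error 0.08, limma adjusted p = 0.0283) and Btk by -0.72 (standard error 0.14, limma adjusted p = 0.048). The limma adjusted p ranged to 0.0655, 0.124 and 0.188 for Spi1, Lyn and Btk when 1 mouse was left out, each time highest without R-WT mouse 1. Under the other settings it ranged to 0.0658, 0.124 and 0.222, so that all 3 calls depend on the setting. The 0.124 of Lyn is the same fit both times, since leaving out mice that express Xist removes only R-WT mouse 1. In P-KO against P-Ctrl mice the log2 differences were -0.52 for Spi1, -0.28 for Lyn and -0.35 for Btk, none of them called, but Spi1 passed when the 4 groups were fitted together (adjusted p from limma 0.038, against 0.117 in the pair of groups alone). No difference between the changes in the 2 crosses passed the test in these 3 genes or in Hs3st1 (interaction contrast in limma, lowest adjusted p = 0.468).

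**Figure D4:**
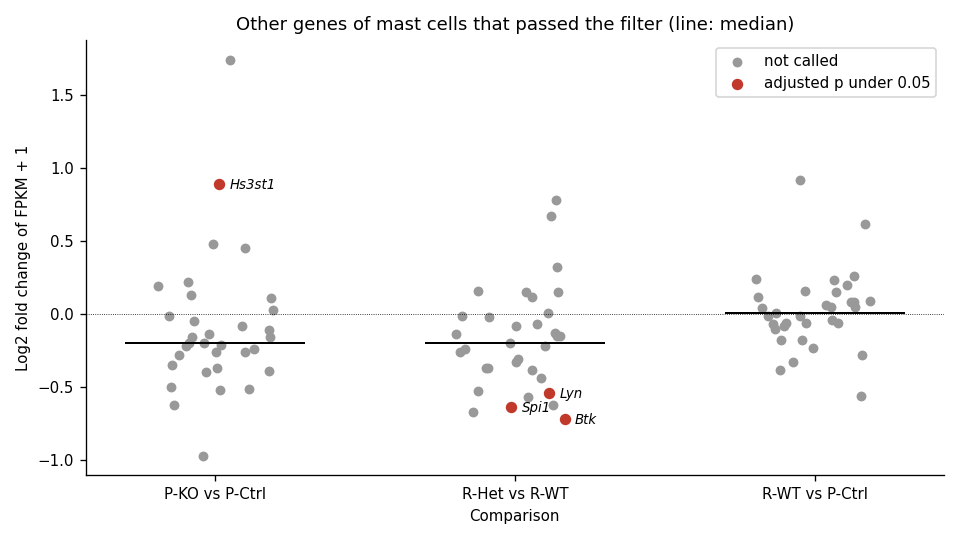
Log2 fold change of FPKM + 1 (y axis) of the 33 tested genes from the 4 lists in each of the 3 comparisons (x axis), 1 point per gene with a line at the median. Red points passed the adjusted p of 0.05 in limma, namely Hs3st1 in P-KO and Spi1, Lyn and Btk in R-Het mice, and the medians of both mutant comparisons lie at -0.20.

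The KIT ligand Kitl was at 5.63 to 7.25 FPKM in P-KO and at 5.11 to 6.59 FPKM in P-Ctrl mice, a log2 difference of 0.13 (limma adjusted p = 0.576). It was lower in R-Het than in R-WT mice by -0.22 without passing the test (limma adjusted p = 0.309). The lineage factors Gata2 (0.19 and 0.15) and Mitf (-0.22 and -0.53) did not pass either, with limma adjusted p-values of 0.569 and 0.767 for Gata2 and of 0.568 and 0.0751 for Mitf in P-KO and R-Het mice. Srgn, the core protein of the granule proteoglycan, which other blood cells also make, had log2 differences of 0.22 in P-KO and -0.37 in R-Het mice (limma adjusted p = 0.284 and 0.18). Mrgprb2, a receptor of connective tissue mast cells that was singled out after its values were seen, was at 1.27, 1.09 and 1.48 FPKM in P-KO against 0.808, 0.452 and 0.755 FPKM in P-Ctrl mice 1 to 3. It was at 1.69, 2.17 and 1.59 FPKM in R-Het against 0.737, 0.596 and 0.969 FPKM in R-WT mice 1 to 3. Both pairs of groups were apart. So were 19.6% of all tested genes in the same direction in P-KO mice and 10.7% in R-Het mice. Neither difference was called (log2 differences of 0.45 and 0.67, limma adjusted p = 0.17 and 0.0732). All mice above 1 FPKM were mutants, so Mrgprb2 reached the minimum level for testing through the groups where it was high. These p-values therefore carry no weight.

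The mucosal proteases were at or near 0. Mcpt1 was listed above 0 in 1 mouse at 0.12 FPKM, Mcpt2 reached 0.508 FPKM in P-Ctrl mouse 2, and Mcpt9 did not exceed 0.0466 FPKM. Tpsg1, a membrane-anchored tryptase beside Tpsb2, did not exceed 0.193 FPKM. Markers of basophils, the blood cells most like mast cells, were also low, with at most 0.905 FPKM for Mcpt8 and 1.66 FPKM for Prss34, and the sum of both and Cd200r3 was 0.745 to 1.7 FPKM in P-Ctrl, 1.74 to 2.72 in P-KO, 1.36 to 1.55 in R-WT and 0.905 to 1.68 in R-Het mice. This sum was higher in each P-KO than in each P-Ctrl mouse, but narrowly so, at 1.74 against 1.7 FPKM where the groups came closest. Prss34 and Cd200r3 had a higher mean in P-KO mice, Mcpt8 a lower one (0.132 against 0.355 FPKM), and no marker alone separated these groups. The part of basophils in the levels of the mast cell genes was not tested. The log2 difference of Prss34 was 0.48 in P-KO and -0.24 in R-Het mice (limma adjusted p = 0.297 and 0.742). Only P-KO mice 1 and 2 (1.44 and 1.66 FPKM) and P-Ctrl mouse 2 (1.08 FPKM) were above 1 FPKM. Prss34 thus needed P-KO mice to reach the minimum level for testing, and its p-value in P-KO mice carries no weight.

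The tested genes around the tryptases had a median log2 difference close to 0 in each comparison. Of 53 other genes within 0.5 Mb, 37 were tested, a count that includes the member Tpsb2. None was called in R-WT against P-Ctrl mice (limma, adjusted p under 0.05). In the mutant comparisons, none of those outside the members was called. In R-Het against R-WT mice the log2 differences of the 37 ranged from -0.37 to 0.33, the latter in Tpsb2, with a median of 0.01. In P-KO against P-Ctrl mice they ranged from -0.4 in Lmf1 to 0.78, again in Tpsb2, with Prss34 at 0.48 and a median of 0.01. Runx2 lies on the same chromosome, 19.2 Mb away between starts. Of all called genes in R-Het mice 4.86% were on chromosome 17, which holds 4.82% of the tested genes. Around Cma1, 25 of 52 genes were tested, a count that includes the member Mcpt4. Outside the members, 1 was called in R-Het mice (Fitm1, log2 difference -3.09, limma adjusted p = 0.0403), a gene of skeletal muscle that was singled out after its values were seen.

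**Figure D5:**
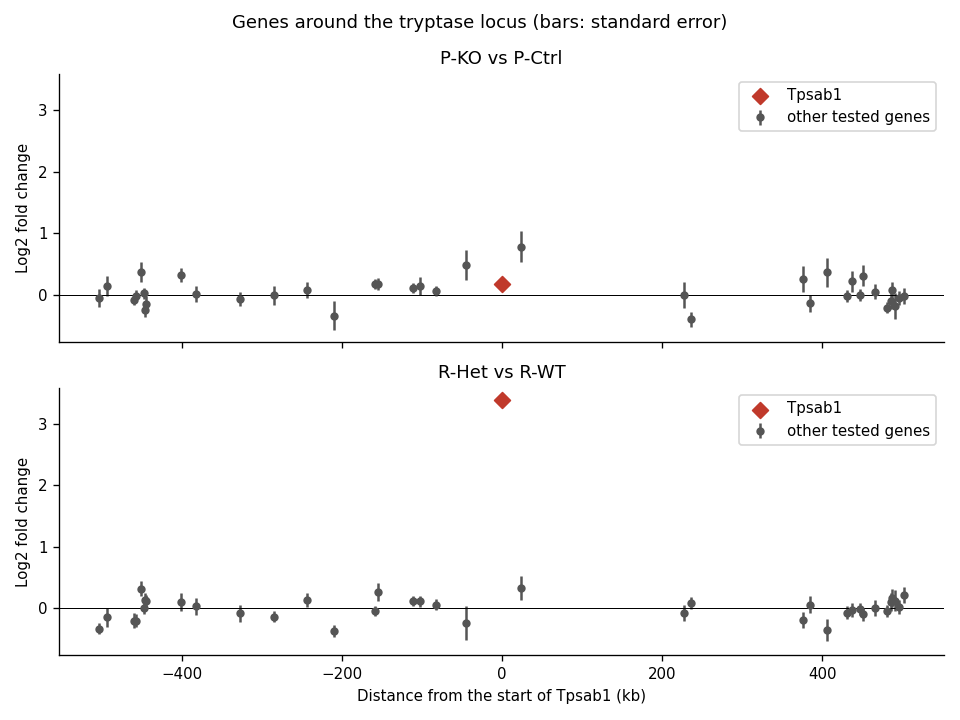
Log2 fold change of FPKM + 1 (y axis) of the tested genes within 0.5 Mb against the distance of their start from that of Tpsab1 in kb (x axis), in P-KO against P-Ctrl and R-Het against R-WT mice, with bars of 1 standard error from limma. Tpsab1, the red diamond, lies at 0.17 and at 3.38. The grey neighbours lie between -0.4 and 0.78 in P-KO mice and between -0.37 and 0.33 in R-Het mice.

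Over the 12 mice, the log2 values of Cpa3, Cma1, Tpsb2 and Mcpt4 followed the mean of the other members, Tpsab1 left out, with Pearson r of 0.96, 0.93, 0.89 and 0.81. Over deviations from the group means r was 0.93, 0.91, 0.75 and 0.87, so these genes ran together within groups too. Hdc (0.67 and 0.28), Kit (0.55 and 0.18), Ms4a2 (0.12 and 0.47) and Fcer1a (0.01 and 0.01) followed less closely, and the latter 2 rest on very few fragments. The points share their library and its depth. These are descriptions of 12 mice in 4 groups, without a test.

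The named genes most like Tpsab1 over the 12 mice were Atp6v0c-ps2 (r = 0.942), Epyc (0.925), Twist2 (0.912), Zfp651 (0.91) and Prmt8 (0.904). They share with it the separation of the R-Het mice. Atp6v0c-ps2, a pseudogene on chromosome 6, was at 271, 240 and 271 FPKM in R-Het mice 1 to 3 and at 12.9 to 30.4 FPKM in the other 9. Epyc, a proteoglycan gene on chromosome 10, was at 22.8, 26 and 28.1 FPKM in R-Het mice and at 4.84 to 8.8 FPKM in the other 9. None of the 5 lies on chromosome 17. Reads of a pseudogene and its parent gene may be split by the counting, so the level of Atp6v0c-ps2 is uncertain. The genes most like the mean of the other members were Swi5 (r = 0.922), Golt1b (0.92), Morf4l2 (0.909), Hnrnpll (0.904) and Rbm8a (0.901), none of which is a mast cell marker. Over deviations from the group means they were Cfdp1 (0.922), Med9os (0.913), Nudcd2 (0.909), Hmgb1 (0.905) and Rpa3 (0.899). Morf4l2, for example, was at 405, 416 and 490 FPKM in P-Ctrl and at 561, 564 and 554 FPKM in P-KO mice 1 to 3.

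The summed markers of other cell types separated mutants from controls in some lists and overlapped in others. Of the 13059 tested genes, 73 were called lower in P-KO mice and 195 (1.49%) in R-Het mice. The summed FPKM of 8 osteoblast markers was 33600 to 35700 in P-Ctrl and 15600 to 22100 in P-KO mice, with 1 of 8 called lower, and 29600 to 33400 in R-WT and 19600 to 25500 in R-Het mice, with none called. Since FPKM are shares of a library, the mast cell genes are measured against this pool. The sum of 8 skeletal muscle markers was 20.6 to 1370 FPKM in P-Ctrl, 594 to 4150 in P-KO, 1900 to 5600 in R-WT and 25.2 to 186 in R-Het mice, and all 8 were called lower in R-Het mice. The 4 nerve markers summed to 9.1 to 11.3 FPKM in P-Ctrl and to 17.9 to 25.9 FPKM in P-KO mice, with none called, and to 8.78 to 14.2 FPKM in R-WT and R-Het mice. The 5 fibroblast markers summed to 3260 to 3560 FPKM in P-Ctrl and 2110 to 3040 in P-KO mice, which did not overlap, and to 2990 to 3500 in R-WT and 2960 to 3860 in R-Het mice. The 4 erythroid markers summed to 6310 to 9060 FPKM in P-Ctrl and 3590 to 5740 in P-KO mice, which did not overlap, and to 7630 to 9270 in R-WT and 2030 to 7970 in R-Het mice. The 6 macrophage markers summed to 575 to 745, 326 to 702, 503 to 554 and 399 to 539 FPKM in P-Ctrl, P-KO, R-WT and R-Het mice, and the 9 markers of neutrophils and their precursors to 171 to 622, 68.4 to 302, 299 to 461 and 73.5 to 383 FPKM in the same order. No marker of these 4 lists was called in either mutant comparison, and the median log2 difference of the neutrophil list was -0.48 in P-KO and -1.29 in R-Het mice. The 4 endothelial markers summed to 50.2 to 62.3 FPKM in P-Ctrl, 46.7 to 50.4 in P-KO, 49.5 to 53.9 in R-WT and 38.2 to 43.4 in R-Het mice, with 1 called lower in R-Het mice. The 4 cartilage markers summed to 26.6 to 47.6 FPKM in P-Ctrl, 18.7 to 29.3 in P-KO, 16.9 to 29.9 in R-WT and 26.4 to 67.6 in R-Het mice, with 1 called lower in P-KO mice. The 5 epidermal markers summed to 2.34 to 5.12 FPKM over all mice, with none called. Lymphocyte markers summed to at most 2 FPKM in every mouse. The part of these cell types in the levels of the mast cell genes was not tested. With the FPKM of each mouse rescaled to the same sum, the median log2 difference of the 8 genes was 0.47 in P-KO and 0.23 in R-Het mice, and that of Tpsab1 in R-Het mice was 3.40.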

How the data were processed

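RNA-seq of calvaria was analysed in 12 mice, 3 per group. The authors extracted total RNA with TRIzol, made Illumina TruSeq libraries and deposited FPKM values per RefSeq transcript. The submitters' processing notes name Bowtie 0.12.8 and mm10. The program that estimated FPKM is not given in the sources used here, and the unit was inferred from the values. Of 30411 transcripts, 29835 were matched to symbols by the RefSeq gene table and 180 by GENCODE M21, which supplied the coding Tpsab1 RNA, and 396 kept their identifier. FPKM were summed per symbol.

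Genes that reached 1 FPKM in 3 or more of the 12 mice were tested on log2(FPKM + 1) by limma 3.58.1 (R 4.3.3) with a mean-variance trend, 6 mice per fit and Benjamini-Hochberg adjustment. On simulated data with 200 changed genes the fit was checked before use. The plan had named this fit for the case of FPKM values. The members and gene lists were chosen with earlier results of these data known. Named genes were the members, called genes of the 4 lists and of the tryptase surroundings, 11 further mast cell genes, and the 5 genes most like each pattern, predicted genes left out. Alternatives were another added constant, no filter, all mice in 1 fit, a replicate block, rescaling, male libraries and leaving out each mouse. Litters, dates and batches were not given, so no within-batch values could be had, and p-values measure the spread between these mice.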

Additional observations from a re-analysis of the deposited data

How the results depend on the processing

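With 3 mice per group, the counts of called genes depended on the settings. In P-KO against P-Ctrl mice limma called 205 genes, 35 without the filter, 717 with all 12 mice in 1 fit, 107 after rescaling, 0 with male libraries (1 control left) and 0 to 35 when any 1 mouse was left out, the 0 without P-KO mouse 1. In R-Het against R-WT mice it called 247 genes, 18 without the filter, 95 with all 12 mice in 1 fit and 34 to 169 when any 1 mouse was left out. The 34 came without R-WT mouse 1. That mouse alone expresses Xist in this comparison, so the fit of male libraries is the same fit. In R-WT against P-Ctrl mice it called 5 genes, 9 without the filter, 8 with all 12 mice in 1 fit, 17 with male libraries and 4 to 10 when 1 mouse was left out. Deviations of same-numbered mice correlated at 0.0527 to 0.259 in the P-KO and -0.0836 to 0.00482 in the R-Het comparison. Whether the replicate numbers pair the mice could not be decided from this, since litters were not given. With the replicate number as a block, 273 genes were called in P-KO against P-Ctrl, 90 in R-Het against R-WT and 2 in R-WT against P-Ctrl mice. The block could not change the log2 differences of the members, since every group holds the same replicate numbers.

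The median log2 difference of the 8 genes other than Tpsab1 was 0.54 in P-KO mice, 0.83 with male libraries and 0.35 to 0.67 when 1 mouse was left out. In R-Het mice it was 0.21, and -0.01 to 0.38 when 1 mouse was left out. That of Tpsab1 in R-Het mice was 3.38, and 4.52 with 0.1 as the added constant. A median without the filter was not run, since no test enters it. In the comparisons that called them, Hs3st1, Lyn, Btk and Spi1 kept their direction in every alternative, and Hs3st1 lost its call in every fit that left out a mouse. With the replicate block, Spi1, Lyn and Btk lost their calls in R-Het mice (limma adjusted p = 0.0544, 0.0825 and 0.0973). Over the settings other than left-out mice, the limma adjusted p was 0.0168 to 0.0658 for Spi1, 0.0292 to 0.124 for Lyn and 0.0488 to 0.222 for Btk. The 0.124 of Lyn came from male libraries, the same fit as without R-WT mouse 1. For Hs3st1 it was 0.0293 with the replicate block and 0.124 without the filter. The causes were not tested. Depth limits Fcer1a, Ms4a2, Hdc and Kit.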
